A study of Bos taurus with 12 samples.

Results

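ISG15, the ubiquitin-like protein that interferons induce, and 5 genes of the machinery that joins it to other proteins or takes it off again (UBA7, UBE2L6, HERC5, TRIM25 and USP18) were followed in bovine chromaffin cells in culture. These adrenal medulla cells release catecholamines. All probe sets carrying these symbols in the platform's gene table were taken. They were 10 of the 24016 probe sets tested, and the 6 genes were 6 of 9155 genes with a symbol. ISG15 (probe set Bt.12304.1.S1_at), UBA7 (Bt.2294.1.S1_a_at), HERC5 (Bt.22058.1.A1_at) and TRIM25 (Bt.13869.1.A1_at) had 1 probe set each, UBE2L6 had 2 and USP18 had 4. A gene with several is given first by its representative one, that of the highest mean over the 12 arrays, and then by the others. The cells had been treated with human IFNα (interferon alpha, PeproTech) at 1 nM for 24 h, with IL6 (interleukin-6) at 10 nM for 24 h, or with 10 µM histamine over 6 h. The control cells were left untreated. Total RNA of each group was measured on 3 single-colour Affymetrix arrays, 12 in all. The submitters call these triplicates technical, so p-values measure only the spread between arrays, and neither the number of source animals nor the culture time of the untreated cells is given in the sources used here. The 3 comparisons with untreated cells share the same untreated arrays.

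ISG15 is attached to lysines of target proteins through the same kind of relay as ubiquitin. UBA7 is the activating enzyme (E1), UBE2L6 the conjugating enzyme (E2) and HERC5 the main ligase (E3) in human cells, while TRIM25, a ubiquitin ligase for the RNA sensor RIG-I, has also been described as an ISG15 ligase. USP18 removes ISG15 from its targets and also binds the type I interferon receptor, where it dampens signalling. In cattle ISG15 is best known from the endometrium, where interferon tau from the conceptus induces it. Transcripts were measured here, and no ISG15 conjugates.

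Values are log2 expression, so a difference of 1 is a doubling of signal. A probe set was called when limma gave a Benjamini-Hochberg adjusted p under 0.05 over all probe sets tested and the fold was at least 1.5, and "rose" and "fell" are used for called changes only. Counts at an unadjusted p under 0.05 are given as a description only, since the share of all probe sets at that threshold was not counted. The dim end of the arrays was marked by their lower quartiles (5.02 to 5.11) and the bright end by their highest values (14.01 to 14.14). A fold is given as "at least" where its lower mean was below 5.02, or its higher mean within 0.5 of 14.01.

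The arrays were closely alike within groups (correlations across probe sets 0.993 to 0.998). TH, CHGA and PENK had means of 13.45, 13.62 and 13.89 in untreated cells, near the top of the scale. They are 3 of 9 chromaffin markers measured, which averaged 11.65 to 11.73 on untreated arrays. The leukocyte marker PTPRC was dim at 4.56. The 7 leukocyte markers measured, PTPRC among them, averaged 6.10 to 6.18 there, above the lower quartiles of the arrays. The array mean over 13 hypoxia and glycolysis genes was 10.70 on IFNα repeat 3 and 10.57 and 11.01 on IL6 repeats 2 and 3, against 9.69 to 10.01 on the other 9 arrays. Of all named genes 3.95%, 2.76% and 6.98% were called in either direction after IFNα, IL6 and histamine. Of 8 adrenal cortex markers 5 fell after IFNα, 3 fell after IL6 and 2 rose after histamine. They averaged 5.70 to 5.79 on IFNα arrays, 5.86 to 5.94 on IL6 arrays and 6.80 to 6.82 on histamine arrays, against 6.37 to 6.41 on untreated arrays. The 7 leukocyte markers measured averaged 6.10 to 6.13 on IFNα arrays, 6.47 to 6.53 on IL6 arrays and 6.31 to 6.35 on histamine arrays, against 6.10 to 6.18 on untreated arrays. Of 9 chromaffin markers 4 rose after histamine, 1 rose and 1 fell after IL6, and 0 were called by limma after IFNα. These 9 averaged 11.67 to 11.96 on IFNα arrays, 11.45 to 11.76 on IL6 arrays and 12.08 to 12.23 on histamine arrays. On untreated arrays they averaged 11.65 to 11.73. The 8 fibroblast and mural cell markers averaged 7.45 to 7.59 on IFNα arrays, 7.66 to 7.72 on IL6 arrays and 8.05 to 8.13 on histamine arrays, against 7.74 to 7.81 on untreated arrays. The 6 endothelial markers averaged 5.56 to 5.66, 5.70 to 5.76 and 5.67 to 5.82 on IFNα, IL6 and histamine arrays, against 5.95 to 6.03 on untreated arrays. For 2 Schwann cell markers the ranges were 7.34 to 7.36, 7.70 to 7.78 and 7.62 to 7.64 on IFNα, IL6 and histamine arrays, against 7.51 to 7.57 on untreated arrays. In total RNA, fewer cells of a type and less RNA per cell cannot be told apart, and the part of these shifts in the results was not tested.

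Untreated repeat 1 stood apart from the other untreated arrays in some interferon-response genes. ISG15 read 8.78 on it, against 7.82 and 7.66 on untreated repeats 2 and 3. All 4 USP18 probe sets were also highest there, by 0.34 to 0.94 over the next untreated array. UBA7 (8.08, 8.17 and 8.05 on untreated repeats 1, 2 and 3), HERC5 (5.55, 5.57 and 5.49) and both UBE2L6 probe sets were not highest on repeat 1. Of 28 other interferon-response genes 20 were highest on repeat 1, led by RSAD2, which encodes viperin (7.16 against 4.79 and 4.72), and EIF2AK2, which encodes the kinase PKR (7.97 against 6.00 and 6.16). Of the 10 probe sets of the ISG15 genes 6 were highest on repeat 1, that of TRIM25 by only 0.05. Among all probe sets 32.2% were highest on that array, and 0.816% by more than 0.3. Above that gap were 5 of the 10 probe sets of the ISG15 genes, 4 of them for USP18, and 5 of the 28 other interferon-response genes (17.9%). Results against untreated cells are therefore given with and without this array for ISG15 and USP18, and for part of the other genes. The array was singled out on values of these same genes, so fits without it are a description. Elsewhere, a value given only with all arrays may also shift without it.

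**Figure D1:**
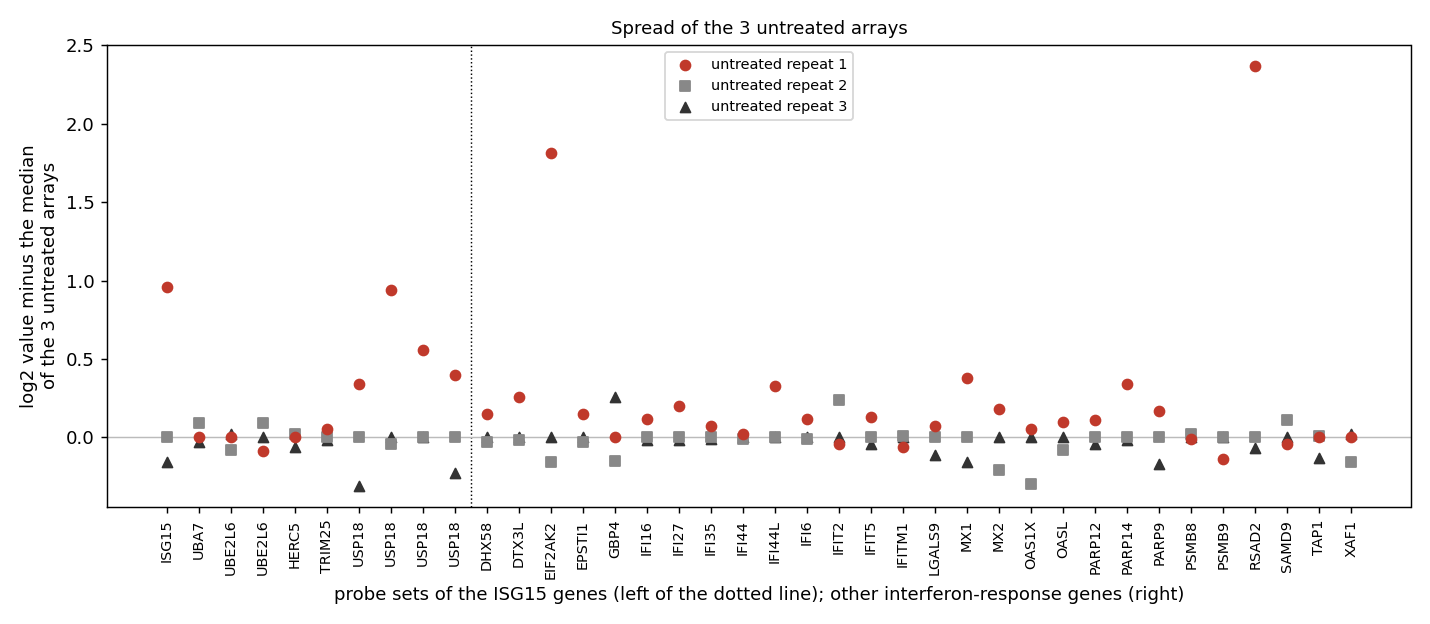
Log2 value on each of the 3 untreated arrays minus the median of the 3 (y axis), for the 10 probe sets of the ISG15 genes (left of the dotted line) and 28 other interferon-response genes (right). Untreated repeat 1 (circles) is highest for ISG15, the 4 USP18 probe sets and, by 0.05, TRIM25. RSAD2 and EIF2AK2 lie farthest from the other arrays, at 2.37 and 1.81 above the next.

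IFNα raised 5 of the 6 genes: the modifier, its activating and conjugating enzymes, TRIM25 and the protease USP18. HERC5 alone had a negative change, below the fold minimum. Among all named genes 2.86% were called higher after IFNα and 3.95% in either direction. In probe sets, 9 of 10 were called higher, against 2.18% of all probe sets. The median log2 change of the 6 genes was 2.94, against -0.02 over all probe sets.

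ISG15 had the largest change of the 6 genes. It read 13.72, 13.78 and 13.68 on IFNα arrays, against 8.78, 7.82 and 7.66 on untreated arrays, so the groups were far apart. The rise was at least 49.9-fold (log2 change 5.64, SE 0.21; limma, adjusted p = 3.18e-11), since the IFNα values lay near the top of the scale. Without untreated repeat 1 it was at least 63.4-fold (log2 change 5.99, SE 0.11).

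UBA7 read 12.07, 12.14 and 12.03 on IFNα arrays, against 8.08, 8.17 and 8.05 on untreated arrays. This activating enzyme rose 15.8-fold (log2 change 3.98, SE 0.06; limma, adjusted p = 2.16e-15). Its untreated arrays differed little from each other, and the log2 change was 3.97 with untreated repeat 1 left out. Of 7 E1 enzymes of other modifiers 0 were called by limma, and 4 had an unadjusted p under 0.05. Their log2 changes ran from -0.14 for the ubiquitin E1 UBA1 to 0.29 for MOCS3.

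The conjugating enzyme UBE2L6 rose on both of its probe sets. The representative one, Bt.16725.1.S1_at, read 8.10, 8.14 and 7.90 on IFNα arrays, against 6.17, 6.09 and 6.19 on untreated arrays, a rise of 3.72-fold (log2 change 1.90, SE 0.07; limma, adjusted p = 6.69e-11). The other, Bt.16725.2.A1_at, read 8.35, 8.53 and 8.22 on IFNα arrays, against 5.91, 6.09 and 6.00 on untreated arrays, a rise of 5.16-fold (log2 change 2.37, SE 0.13). UBE2L3, the closest relative of UBE2L6 and an E2 for ubiquitin, was not called, with a log2 change of -0.15 (SE 0.06).

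Of the ligases, TRIM25 rose and HERC5 did not. TRIM25 read 10.28, 10.34 and 10.37 on IFNα arrays, against 8.73, 8.68 and 8.66 on untreated arrays. It rose 3.12-fold (log2 change 1.64, SE 0.07; limma, adjusted p = 9.95e-11). HERC5 read 5.09, 5.01 and 5.14 on IFNα arrays, against 5.55, 5.57 and 5.49 on untreated arrays. Every IFNα array was thus lower. The log2 change was -0.46 (SE 0.10; 95% interval -0.68 to -0.23; limma, adjusted p = 0.00669) and did not reach 1.5-fold. Arrays did not overlap in that direction for 19.6% of all probe sets. The IFNα values of HERC5 lay at the lower quartile of the arrays, and it has a single probe set here.

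HERC6, the ligase that joins ISG15 to its targets in mouse and the gene next to HERC5 in the ARS-UCD2.0 cattle assembly, had a different pattern. It averaged 6.21 on IFNα arrays and 3.75 on untreated arrays, a rise of at least 5.48-fold (log2 change 2.45, SE 0.07; limma, adjusted p = 1.32e-12). HERC2, HERC3 and HERC4 had log2 changes of -0.13, 0.21 and 0.08, none of them called. HERC6 was 1 of 4 genes called among 14 close relatives of the ISG15 genes, all of them higher. The others were TRIM21 (6.68-fold), an antibody-binding ubiquitin ligase, TRIM5 (5.05-fold), a retroviral restriction factor, and TRIM56, which was named after its values were seen (2.03-fold).

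USP18 rose on all 4 of its probe sets, by 18.2-fold to 41.1-fold. Its representative probe set, Bt.23233.3.A1_at, read 11.10, 11.15 and 11.27 on IFNα arrays, against 7.36, 6.80 and 6.80 on untreated arrays. That is 18.2-fold (log2 change 4.19, SE 0.13; limma, adjusted p = 6.09e-12), the smallest of the 4. Probe set Bt.23233.2.S1_at had the largest change, at 11.59, 11.60 and 11.58 on IFNα arrays, against 6.87, 5.89 and 5.93 on untreated arrays (log2 change 5.36, SE 0.21). Bt.23233.1.S1_at and Bt.8962.3.S1_s_at gave 30.3-fold and 27-fold. The suffix _s_at marks a probe set that can match transcripts of more than one gene, although the platform table names USP18 alone. Without untreated repeat 1 the 4 log2 changes were 5.09, 5.68, 4.37 and 4.92 for Bt.23233.1.S1_at, Bt.23233.2.S1_at, Bt.23233.3.A1_at and Bt.8962.3.S1_s_at. Other proteases reported to act on ISG15 were not called by limma (USP2, USP5 and USP14, log2 changes -0.10, -0.07 and 0.12), and 1 of the 3 had an unadjusted p under 0.05.

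**Figure D2:**
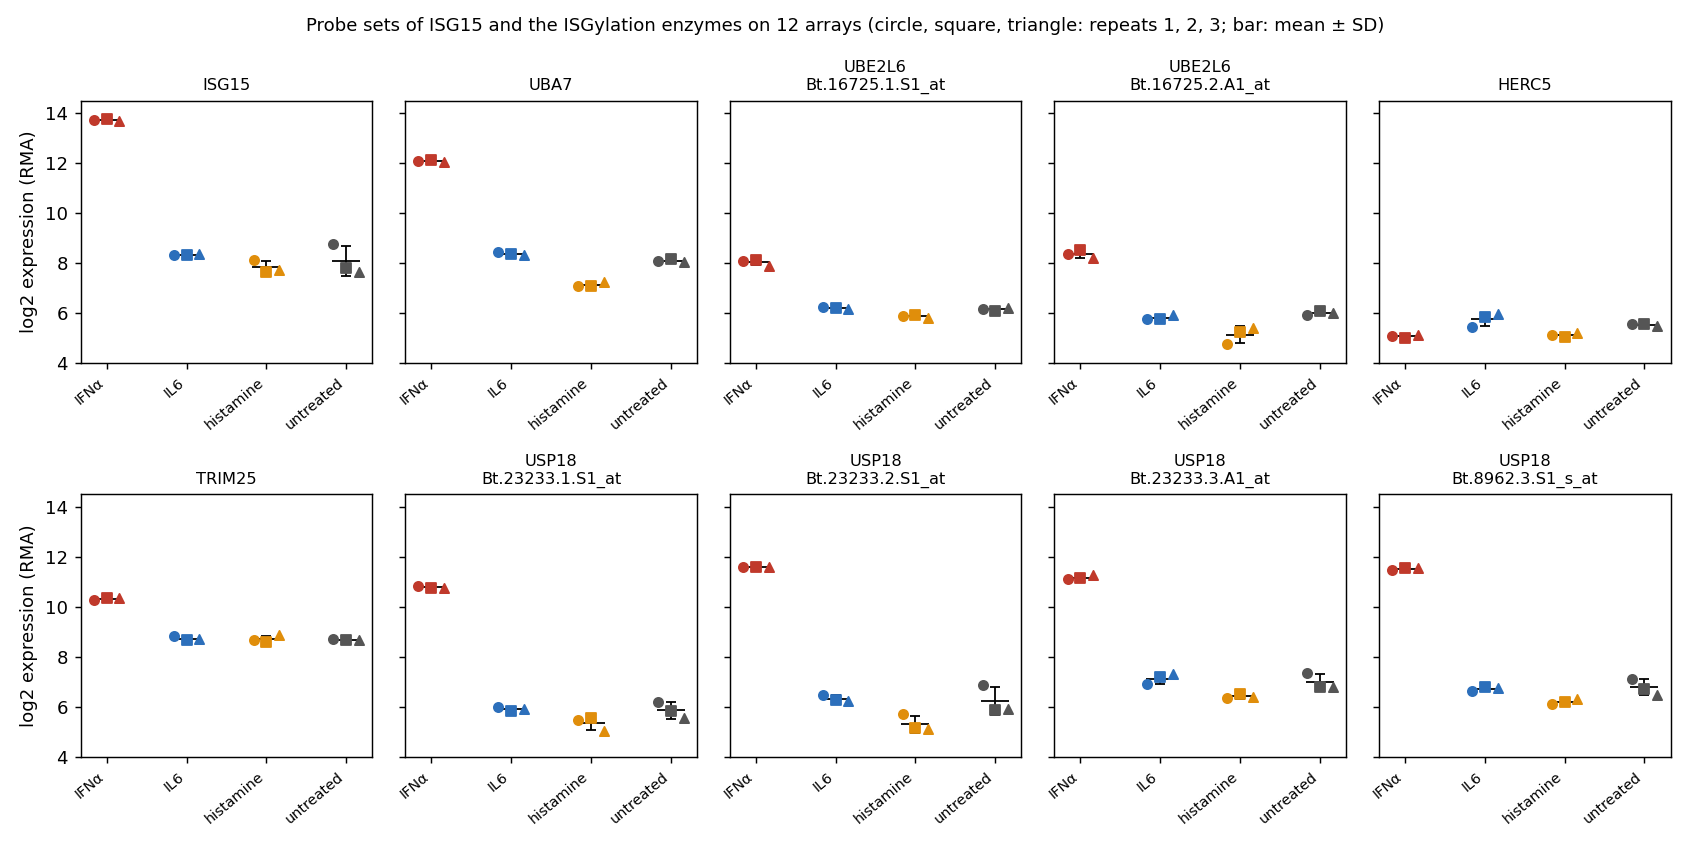
Log2 expression (y axis) of the 10 probe sets on 12 arrays, by group (x axis), with circles, squares and triangles for repeats 1, 2 and 3 and the mean ± SD of each group. The IFNα arrays lie above all other arrays in every panel but that of HERC5. The histamine arrays lie below all others for UBA7 (7.08 to 7.25), for both UBE2L6 probe sets and for all USP18 probe sets except Bt.23233.1.S1_at. The share of all probe sets with 1 group apart from all others in this way was not counted.

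Of 10 other ubiquitin-like modifiers measured, 0 were called by limma after IFNα. An unadjusted p under 0.05 was found for 5, and the median log2 change was -0.05. They ranged from -0.25 for GABARAP, an autophagy modifier, to 0.20 for UBD, another modifier known to be cytokine-inducible. Of 8 measured genes of interferon signalling, 3 rose: IRF7, a transcription factor of interferon genes (7.67-fold), and IRF9 and STAT2, signal transducers of the type I interferon receptor (4.36-fold and 3.29-fold). IFNAR1 and IFNAR2, the receptor subunits, had log2 changes of -0.18 and 0.18, and JAK1, STAT3 and SOCS3 of -0.07, 0.09 and -0.10, none of them called. Of 28 other interferon-response genes 27 rose, with a median of 3.40, or 3.51 without untreated repeat 1. RSAD2 (log2 change 6.91, SE 0.43), IFI44 (at least 6.28, SE 0.08) and IFI44L (6.10, SE 0.09) had the largest measured changes, and RSAD2 had at least 7.72 without untreated repeat 1. The untreated mean of IFI44 and that of RSAD2 without repeat 1 lay below 5.02, so these 3 have no set order. The counts of 5 and 27 were the same without untreated repeat 1, and without IFNα repeat 3 and IL6 repeats 2 and 3.

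**Figure D3:**
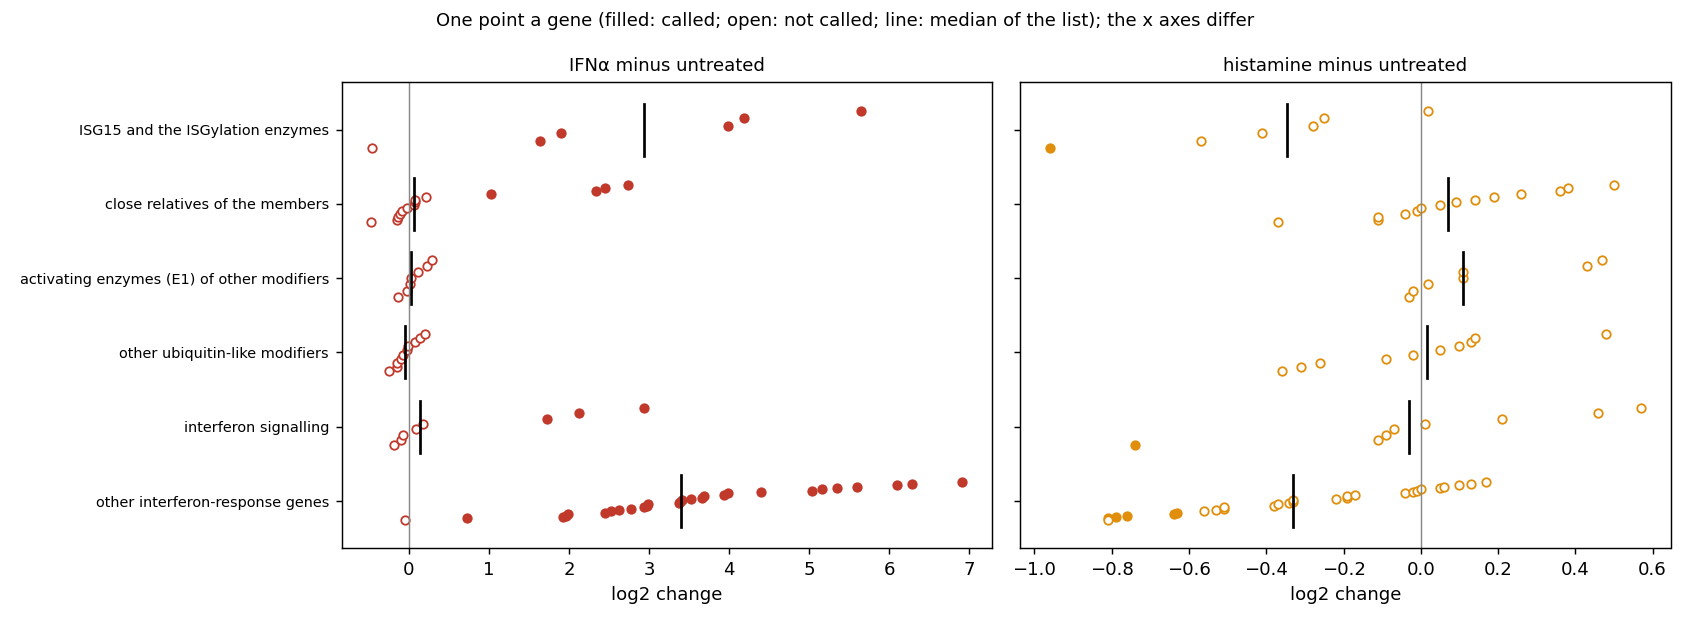
Log2 change (x axis) after IFNα (left) and after histamine (right), one point a gene, filled where called, with the median of each list as a line. After IFNα the ISG15 genes have a median of 2.94 and HERC5 lies at -0.46. After histamine UBA7 (-0.96), IRF9 (-0.74) and 5 of the 28 other interferon-response genes are filled. Other modifiers and their E1 enzymes have no called gene in either panel.

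With all arrays, limma called 0 of the 6 genes and 0 of the 10 probe sets after IL6. An unadjusted p under 0.05 was found for 1 gene. In all, 2.76% of named genes and 2.39% of probe sets were called in either direction. The median log2 change of the 6 genes was 0.18, or 0.25 without untreated repeat 1, against 0.00 over all probe sets. UBA7 was the gene with the small p: it read 8.44, 8.38 and 8.32 on IL6 arrays, against 8.08, 8.17 and 8.05 on untreated arrays. Every IL6 array was higher, but the log2 change of 0.28 (SE 0.06; 95% interval 0.15 to 0.41; limma, adjusted p = 0.00545) was under the fold minimum. Arrays were all higher in this way for 15.2% of probe sets.

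For ISG15 the outcome turned on untreated repeat 1. It read 8.31, 8.33 and 8.37 on IL6 arrays, against 8.78, 7.82 and 7.66 on untreated arrays, so that IL6 arrays lay between the untreated ones. The log2 change was 0.25 (SE 0.21; limma, adjusted p = 0.446). Without untreated repeat 1 ISG15 was called, just past 1.5-fold, at a log2 change of 0.60 (SE 0.11, adjusted p = 0.00366 by limma). That array was singled out for its high ISG15 value among others, so this p is not read as a test of IL6. The 4 USP18 probe sets had log2 changes of -0.06 to 0.15 with all arrays and 0.11 to 0.41 without that array, and none was called in either case.

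HERC5 differed between the IL6 arrays. It read 5.46, 5.85 and 5.95 on IL6 repeats 1, 2 and 3, against 5.55, 5.57 and 5.49 on untreated arrays (log2 change 0.22, SE 0.10; limma, adjusted p = 0.175). Without IL6 repeats 2 and 3 and IFNα repeat 3 its log2 change was -0.08. The part of the raised hypoxia genes in the value of HERC5 was not tested. TRIM25 had 0.04 (SE 0.07), with a 95% interval of -0.10 to 0.18. UBE2L6 had 0.05 (SE 0.07) on Bt.16725.1.S1_at and -0.19 (SE 0.13) on Bt.16725.2.A1_at. Of the signalling genes SOCS3, the feedback inhibitor of IL6 receptors, rose at least 2.43-fold after IL6, while STAT2, IRF7 and IRF9 were not called (0.11, 0.21 and 0.14). JAK1, STAT3, IFNAR1 and IFNAR2 had 0.03, 0.35, 0.16 and 0.36 and were not called. Among 28 other interferon-response genes 3 rose: IFI27, TAP1 and IFITM1, with log2 changes of 1.16, 0.70 and 0.61. Without untreated repeat 1 there were 4, RSAD2 being the addition (at least 0.65, against -0.15 with all arrays), named after its values were seen.

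After histamine UBA7 fell, and no other of the 6 genes was called on its representative probe set. UBA7 read 7.08, 7.10 and 7.25 on histamine arrays, against 8.08, 8.17 and 8.05 on untreated arrays. It fell by 0.96 on the log2 scale (SE 0.06; 95% interval -1.09 to -0.83; limma, adjusted p = 3.59e-08), and by 0.97 without untreated repeat 1. That 1 gene of 6 stood against 3.21% of named genes called lower and 6.98% called in either direction.

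In probe sets, 3 of 10 were called lower after histamine, against 2.71% of all probe sets. Besides UBA7 they were 1 of the 2 for UBE2L6 and 1 of the 4 for USP18. In all, 8 of 10 had an adjusted p under 0.05, against 31.6% of all probe sets, and on 7 of 10 every histamine array was lower than every untreated array, against 22.4%. The median log2 change of the 10 was -0.54, or -0.39 without untreated repeat 1, against 0.00 over all probe sets. USP18 counts 4 times among the 10, and over the 6 genes the median was -0.35, or -0.32 without that array.

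USP18 had a negative change after histamine on all 4 probe sets, and 1 of them was called. Bt.23233.3.A1_at read 6.34, 6.52 and 6.40 on histamine arrays, against 7.36, 6.80 and 6.80 on untreated arrays, with no overlap (log2 change -0.57, SE 0.13; limma, adjusted p = 0.00439). Bt.23233.2.S1_at fell by 0.92 (SE 0.21; limma, adjusted p = 0.00367), with 5.70, 5.14 and 5.10 on histamine arrays, against 6.87, 5.89 and 5.93 on untreated arrays. The values of 5.14 and 5.10 lay near the lower quartiles of the arrays. Bt.23233.1.S1_at and Bt.8962.3.S1_s_at had -0.52 and -0.56 and were not called. These differences were smaller without untreated repeat 1, where Bt.23233.2.S1_at had -0.60 and was still called (limma, adjusted p = 0.00734), and the other 3 ranged from -0.39 to -0.35. Bt.23233.3.A1_at was called when histamine repeat 2 (-0.62) or untreated repeat 2 or 3 (-0.66 each) was left out.

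The UBE2L6 probe sets differed in size. Bt.16725.1.S1_at read 5.89, 5.92 and 5.81 on histamine arrays, against 6.17, 6.09 and 6.19 on untreated arrays (log2 change -0.28, SE 0.07; limma, adjusted p = 0.0101). Bt.16725.2.A1_at read 4.77, 5.25 and 5.41 on histamine arrays, against 5.91, 6.09 and 6.00 on untreated arrays, and fell by 0.86 (SE 0.13; limma, adjusted p = 0.000168). Its lowest histamine value lay below the lower quartiles of the arrays. HERC5 read 5.12, 5.05 and 5.20 on histamine arrays, against 5.55, 5.57 and 5.49 on untreated arrays (log2 change -0.41, SE 0.10; limma, adjusted p = 0.00682). Its histamine arrays were all lower, without reaching 1.5-fold, and lay near the lower quartiles of the arrays.

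ISG15 itself and TRIM25 were not called after histamine. ISG15 read 8.14, 7.63 and 7.73 on histamine arrays, overlapping the untreated range of 7.66 to 8.78. Its log2 change was -0.25 (SE 0.21) with all arrays, and 0.09 (SE 0.11) without untreated repeat 1. TRIM25 had 0.02 (SE 0.07), with a 95% interval of -0.12 to 0.17. Around them, IRF9 fell by 0.74 (SE 0.07) and was the single called gene of 8 in interferon signalling. STAT2 and IRF7 had -0.07 and -0.11, IFNAR1 and IFNAR2 -0.09 and 0.21, JAK1, STAT3 and SOCS3 0.57, 0.46 and 0.01. JAK1 passed 1.5-fold without untreated repeat 1 (0.60). Of 28 other interferon-response genes 5 fell and 0 rose, with a median of -0.33, or 4 and 0 without untreated repeat 1 (median -0.25). The largest falls were those of DHX58, an RNA sensor of the RIG-I family, PARP9 and its partner ligase DTX3L (-0.81, -0.79 and -0.76). The 10 other modifiers and 7 other E1 enzymes had 0 called genes by limma and medians of 0.01 and 0.11. An unadjusted p under 0.05 was found for 6 and 4 of them. At the stricter adjusted p under 0.05, 31.6% of all probe sets passed after histamine.

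**Figure D4:**
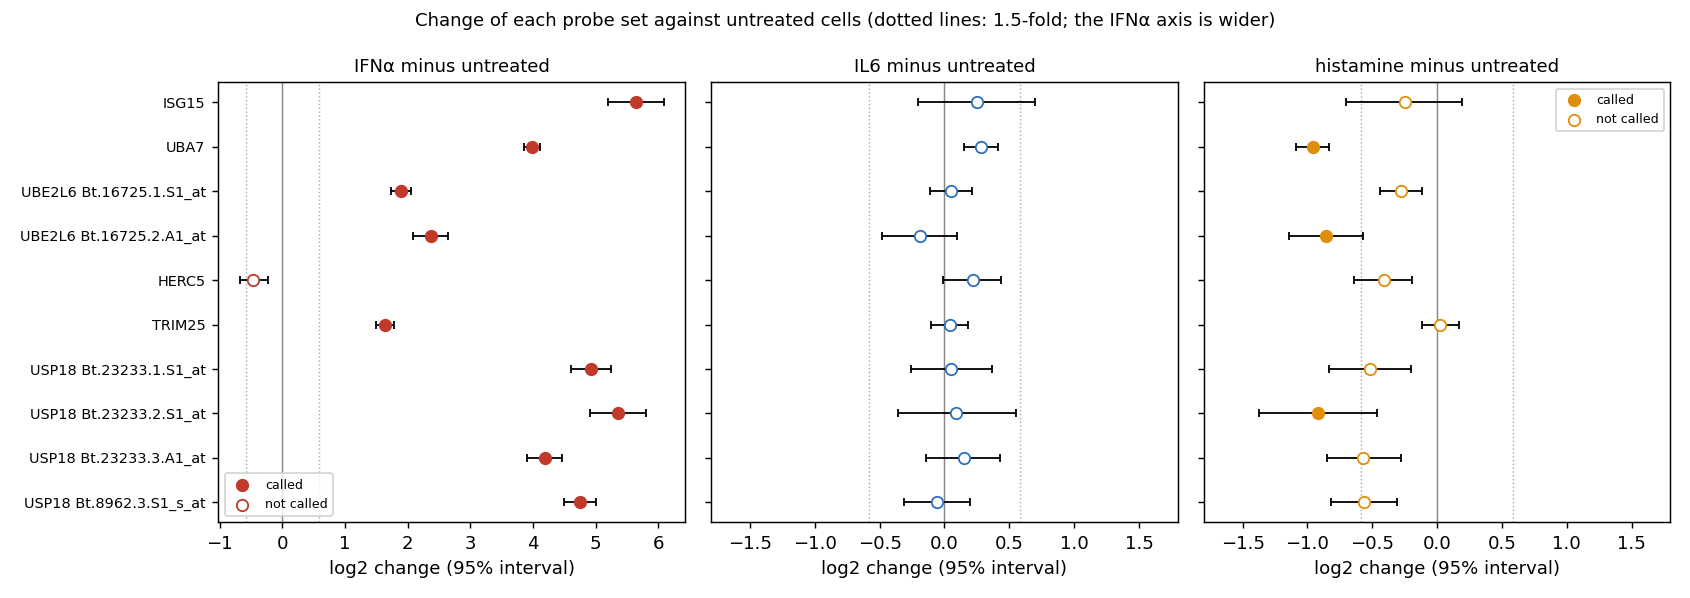
Log2 change against untreated cells (x axis, with the 95% interval of the limma fit) for each probe set after IFNα, IL6 and histamine, filled where called, with dotted lines at 1.5-fold. IFNα changes run from 1.64 (TRIM25) to 5.64 (ISG15) except for HERC5 at -0.46, all IL6 points are open, and the filled histamine points are UBA7 (-0.96), USP18 Bt.23233.2.S1_at (-0.92) and UBE2L6 Bt.16725.2.A1_at (-0.86).

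Both cytokines were applied for 24 h, but IFNα at 1 nM and IL6 at 10 nM. Set against each other, they differed in all 6 genes: 5 were called higher and 1 lower in IFNα-treated than in IL6-treated cells, against 3.87% and 3.09% of named genes. The untreated arrays do not enter these differences, but their spread enters the standard errors, which come from 1 fit to all arrays: without untreated repeat 1 the SE for ISG15 was 0.10 in place of 0.21. ISG15 averaged 13.73 ± 0.05 after IFNα and 8.34 ± 0.03 after IL6 (SD, n = 3 each), at least 41.9-fold (log2 difference 5.39, SE 0.21). The log2 differences were 3.70 for UBA7, 1.84 for UBE2L6, 1.60 for TRIM25 and 4.04 for USP18. HERC5 was lower after IFNα, at 5.08 ± 0.07, against 5.75 ± 0.26 after IL6 (log2 difference -0.67, SE 0.10; limma, adjusted p = 0.000181). That call was lost without IL6 repeat 3 (-0.57, below the fold minimum) and without the 3 arrays of raised hypoxia genes (-0.41).

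The order of the 4 groups differed between the genes. For UBA7 it ran IFNα (12.08 ± 0.06), IL6 (8.38 ± 0.06), untreated (8.10 ± 0.06) and histamine (7.14 ± 0.09; SD, n = 3 each), and no neighbouring groups overlapped. ISG15, UBE2L6 and USP18 had the same order of means on their representative probe sets with all arrays. It did not hold throughout: the IL6 mean was below the untreated mean on UBE2L6 Bt.16725.2.A1_at (-0.19) and USP18 Bt.8962.3.S1_s_at (-0.06), and without untreated repeat 1 the histamine mean of ISG15 was above the untreated one (0.09). Untreated and histamine arrays overlapped in ISG15. In ISG15 and USP18 the IL6 and untreated arrays overlapped, as they did in UBE2L6 (6.17 to 6.23 after IL6 and 6.09 to 6.19 untreated). In TRIM25 IFNα (10.33 ± 0.05) stood above IL6 (8.73 ± 0.09), histamine (8.71 ± 0.13) and untreated cells (8.69 ± 0.04), which overlapped. HERC5 ran IL6 (5.75 ± 0.26), untreated (5.54 ± 0.04), histamine (5.12 ± 0.08) and IFNα (5.08 ± 0.07), with overlap between the first pair and between the last.

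The genes most like each of these by Pearson correlation over the 12 arrays were mostly known interferon-response genes, given here as a description over arrays that include the large IFNα difference. They were MX2, IFI44L and MX1 for ISG15 (0.997, 0.996 and 0.996) and MX1, EPSTI1 and RTP4 for USP18 (0.998, 0.996 and 0.996). For UBA7 they were PARP12, IFI35 and TMEM106A (0.999, 0.999 and 0.997), for UBE2L6 TRIM21, TMEM106A and PSME1 (0.998, 0.997 and 0.996), and for TRIM25 PSMB8, IFIT5 and ZNFX1 (0.997, 0.996 and 0.995). HERC5 had lower values with its nearest genes, RPS15A, WC1.3 and AIG1 (0.947, 0.945 and 0.939). All arrays share their normalization.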

How the data were processed

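Total RNA of 12 samples was labelled with biotin and hybridised to bovine Affymetrix arrays, as the labels' protocols state. The deposited values are log2 expression per probe set, made by the authors with RMA, per the submitters' processing notes. The sources used here do not give the version of RMA. RMA normalises arrays to each other and compresses differences of dim and of very bright probe sets. The table held 24128 probe sets, of which 112 controls were left out. Symbols came from the platform annotation, updated through a cattle RefSeq table (ARS-UCD2.0): 13292 probe sets had 1 symbol, 86 several and 10638 none. The representative probe set of a gene was that of the highest mean over the 12 arrays.

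Values were tested as deposited with limma 3.58.1 in R 4.3.3, fitting group means to the 12 arrays, eBayes with a trend, and Benjamini-Hochberg adjustment over all 24016 probe sets. The procedure was tested on simulated data. Each SD is over 3 arrays, and standard errors and intervals come from the fit. Detection calls were not used here, and precision is limited by the number of arrays. Named were all probe sets of the 6 genes, the interferon signalling list, up to 3 called genes of each other list with the largest change, and the 3 genes most correlated with each of the 6. Uncalled genes of the other lists were singled out after their values were seen. Genes and lists were chosen with earlier results of these data known. Repeat numbers were not taken to pair the arrays. Correlations of same-numbered deviations between compared groups ran from -0.07 to 0.60, the highest being 0.53 and 0.60 for repeats 1 and 3 of IFNα against IL6. Means for different numbers ran from -0.18 to -0.02. These values do not settle whether repeats of the same number belong together, and a fit with a replicate block is given below. Figures used matplotlib 3.10.9 in Python 3.11.15.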

Additional observations from a re-analysis of the deposited data

How the results depend on the processing

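The 5 rises after IFNα and the fall of UBA7 after histamine kept their direction and their call under other eBayes settings, array weights, quantile, median and cyclic loess normalization, a fit on the arrays of both compared groups only, a gene's mean over its probe sets, and leaving out any array; a fold minimum of 2 ended the call of UBA7 after histamine (-0.96). HERC5 lay below the median level of all probe sets, so it has no value where only those above it were tested. With fold minimums of 1.2 and 2, the probe sets called were 2928 and 325 after IFNα (807 at 1.5), 2969 and 148 after IL6 (573), 5723 and 254 after histamine (1369), and 4932 and 548 between the cytokines (1468). At 1.2-fold HERC5 was also called lower after IFNα (-0.46), 4 of the 6 genes were called after histamine and 1 after IL6, and at 2-fold 0 after histamine, where 1 was called at 1.5; with the mean of all probe sets, USP18 (-0.64) made it 2. Leaving out each array in turn gave 1 to 2 genes called after histamine and 0 to 1 after IL6; USP18 was called after histamine without histamine repeat 2 (-0.62) or without untreated repeat 2 or 3 (-0.66 each). Changes near 0 turned sign: after IL6, TRIM25 with array weights (-0.01), HERC5 and USP18 without the 3 arrays of raised hypoxia genes (-0.08 and -0.09), UBE2L6 with the mean of probe sets (-0.07) or its other probe set (-0.19), and USP18 on Bt.8962.3.S1_s_at (-0.06); after histamine, TRIM25 with array weights (-0.02). Leaving out single arrays gave -0.47 to 0.09 for ISG15 and -0.05 to 0.07 for TRIM25 after histamine, and -0.01 to 0.07 for TRIM25 after IL6. With the replicate block, ISG15 after IFNα kept 5.64, the genes called were 5, 0, 1 and 6 for IFNα, IL6, histamine and IFNα against IL6, and the block changed no call of these genes. The cause of these shifts was not tested.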

Other observations

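Among 13 measured genes whose proteins have been reported to carry ISG15, 4 rose after IFNα and 0 fell. MX1, a dynamin-like antiviral GTPase, rose 21.1-fold, EIF2AK2, the kinase PKR, 10.7-fold (16.5-fold without untreated repeat 1), and IRF3, a transcription factor of interferon genes, 2.27-fold. CHMP5, an endosomal sorting protein named after its values were seen, rose 1.57-fold. MX1 and EIF2AK2 are also among the 28 interferon-response genes, and the median of the 13 was 0.04. After IL6 MAPK3, a signalling kinase, was the single called gene (log2 change 0.69). After histamine 0 were called by limma, with 11 at an unadjusted p under 0.05. At the stricter adjusted p under 0.05, 31.6% of all probe sets passed after histamine, so the 11 are not read as a result about these genes. Without untreated repeat 1 the signalling kinase JAK1 was called (0.60, against 0.57 with all arrays). ITGAL and ITGB2, the subunits of the integrin LFA-1 that binds extracellular ISG15, were not called after IFNα (0.04 and -0.54), and ITGB2 fell by 0.95 on the log2 scale after IL6. In all, 2.76% of named genes were called in either direction after IL6. ITGB2 is also 1 of the 7 leukocyte markers, of which 2 rose and 1 fell after IL6. Those 7 averaged 6.47 to 6.53 on IL6 arrays, against 6.10 to 6.18 on untreated arrays.

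Of the genes next to the ISG15 genes in the ARS-UCD2.0 assembly that were measured, HERC6 and SERPING1 rose after IFNα. Among all named genes 2.86% were called higher, and these few neighbours are not read as a result about position. SERPING1, the complement inhibitor next to UBE2L6, rose by 1.13 on the log2 scale. INKA1 next to UBA7 had 0.53 (limma, adjusted p = 0.000499), below the fold minimum. COIL next to TRIM25 and ALG10 next to USP18 had 0.01 and -0.12 and were not called.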
